A study of Mus musculus with 2 samples.

Results

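The unfolded protein response and molecular chaperone genes were compared between luminal Venus High and luminal Venus Low mammary epithelial cells. The genes were chosen by symbol: heat shock protein genes (Hspa, Hspb, Hspd, Hspe, Hsph and Hsp90), J-protein genes (Dnaja, Dnajb and Dnajc), protein disulfide isomerase genes (Pdia), the Creb3, Bag, Edem and Sec61 genes, the Cct chaperonin genes, and Ern1, Ern2, Xbp1, Atf3, Atf4, Atf5, Atf6, Ddit3, Eif2ak3, Sel1l, Herpud1, Hyou1, Manf, Ero1l and Trib3. Of 13869 genes with a probe set of their own in the value table, 95 met this choice. The cells were pooled from 3 Tbx3+/Venus knock-in females, virgin adults of 5 months on an FVB background, in which Venus was placed at the start codon of 1 Tbx3 allele and follows the activity of its promoter, so that both populations are heterozygous for Tbx3 and no wild-type cells were arrayed. Sorting on CD24 and CD49f, after CD45+, stromal and dead cells had been removed, gave 200000 luminal cells with high Venus and 200000 with low or no Venus. Each population was hybridized to 1 array, so there are no replicates and no p-values, and the number of arrays limits the precision. Less RNA per cell and fewer cells of a type cannot be told apart in such bulk samples.

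The unfolded protein response is the answer of the endoplasmic reticulum to misfolded cargo. Its sensors IRE1 (encoded by Ern1), PERK (Eif2ak3) and ATF6 raise folding capacity, clear misfolded proteins through the degradation pathway of the reticulum and, through PERK, lower translation. HSP70 proteins hold unfolded segments with the help of J-proteins, HSP90 and the ring-shaped TRiC/CCT chaperonin complete the folding of their own clients, and small heat shock proteins keep damaged proteins from aggregating. Secretory luminal cells of the mammary gland depend on this machinery for milk protein production.

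All values are log2 array signals. The lowest value in the table is the log2 of 10, a floor at which 16370 of its 29338 probe sets lie on both arrays. The other 12968 probe sets are higher in Venus High cells and 0 are lower, so no probe set lower in Venus High cells is among the values used here, and medians over genes lie above 0 by construction. Of 121 mouse genes that fit the choice in the RefSeq gene table, 26 are not analysed here, among them Hspa5, which encodes BiP, Hsp90b1, Hsp90ab1, Ddit3, Herpud1, Dnajb9, Edem1 and Hspd1. The direction of the pathway as a whole therefore cannot be read from what follows. Tbx3 itself, the check of the sort, had log2 signals of 8.72 in Venus High cells against 3.62 in the Venus Low cells on its brightest probe set. The luminal genes Krt8, Krt19 and Gata3 all reached a signal of 100. Of the marker genes with values, 0 of the 6 immune, 5 basal, 5 stromal and 2 endothelial genes did. All 6 immune and all 5 basal genes lay at the floor in both populations, and the stromal gene Dcn had 6.01 in Venus High cells against 4.89 in the Venus Low cells. A marker higher in Venus Low cells could not appear among these values, and other probe sets of the floor genes may be missing. The purity of the populations therefore cannot be read from these markers. The 6 hormone-sensing markers with values, Esr1, Pgr, Prom1, Foxa1, Wnt4 and Cited1, differed by 2.98 to 7.95 on the log2 scale, and 0 of 9 alveolar progenitor markers had a value. The part of luminal cell makeup in the differences below was not tested.

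Few of the chaperone and unfolded protein response genes with values were much higher in Venus High cells, and genes lower in these cells could not be seen. Of the 95 genes, 51 reached a signal of 100 on at least 1 array, 23 stayed between the floor and that signal, and 21 lay at the floor in both populations. A difference of 2-fold or more, higher in Venus High cells, was found for 7 of the 51 genes (13.7%) and for 21.6% of the 3847 genes of the whole table with such a signal. At least 4-fold higher were 3 of the 51 (5.88%), against 8.58% of all genes. The median log2 difference of the 51 was 0.34 with an interquartile range of 0.16 to 0.63, and that of all 3847 genes was 0.46 (0.21 to 0.91). Without a signal minimum this order turned, with a median of 0.23 over the 95 genes beside 0.024 over all 13869, and 10 of the 95 were at least 2-fold higher, beside 9.93% of all genes. For 23 of the 51 genes the difference was below 0.31, the pooled SD between probe sets of the same gene over 1062 genes, which measures disagreement within these arrays and not between animals. The deposited values had been normalized and centred per sample by the authors. Among probe sets at or above a signal of 100 the medians were 8.21 for Venus High and 7.55 for Venus Low. A table without lower probe sets gives this order by construction, so the gap does not show a difference in scaling. Centring each array on this median lowers every difference by 0.66, which 39 of the 51 genes do not exceed. The sign of these 39 turns under that setting, and their direction is not settled. After that centring 3 genes, Hspb8, Dnajc12 and Ern1, were still at least 2-fold higher, where 10.9% of all genes were.

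**Figure D1:**
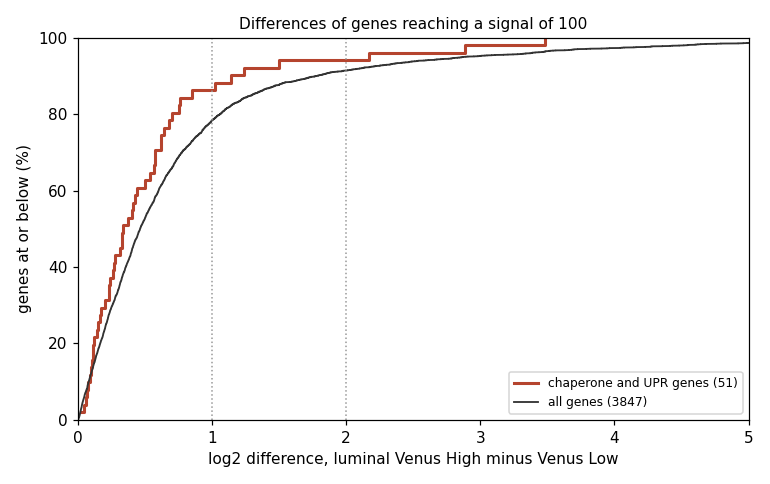
Share of genes (vertical axis, %) with a log2 difference between luminal Venus High and Venus Low cells at or below the value on the horizontal axis, for the 51 chaperone and unfolded protein response genes (red) and all 3847 genes (black) that reached a signal of 100. Dotted lines mark 2-fold and 4-fold, and the red curve, with a median of 0.34, runs above the black curve, with a median of 0.46, over most of the range.

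The 7 genes at least 2-fold higher came from 5 of the 11 role groups. They were Hspb8, Dnajc12, Ern1, Sel1l, Dnajc10, Creb3l2 and Dnajb4, in the order of their differences. The difference of Dnajb4, 1.03, lay just above 2-fold, and Pdia6, with 0.85, was the nearest gene below it. Between 1.5-fold and 2-fold lay Pdia6, Dnajc3, Hspb11, Dnajc1, Dnaja3, Dnajb1, Hyou1 and Bag6. The share of all genes in this range was not counted. Of the 23 genes that stayed below a signal of 100, 3 differed by at least 2-fold: Dnajc16 had log2 signals of 6.33 in Venus High cells against 4.12 in the Venus Low cells, Hspa4 6.25 and 4.74, and Dnajc11 5.78 and 4.67. These 3 are named because of their values and are not counted among the 7. They enter the 10 of 95 genes at least 2-fold higher without a signal minimum, beside 9.93% of all genes.

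**Figure D2:**
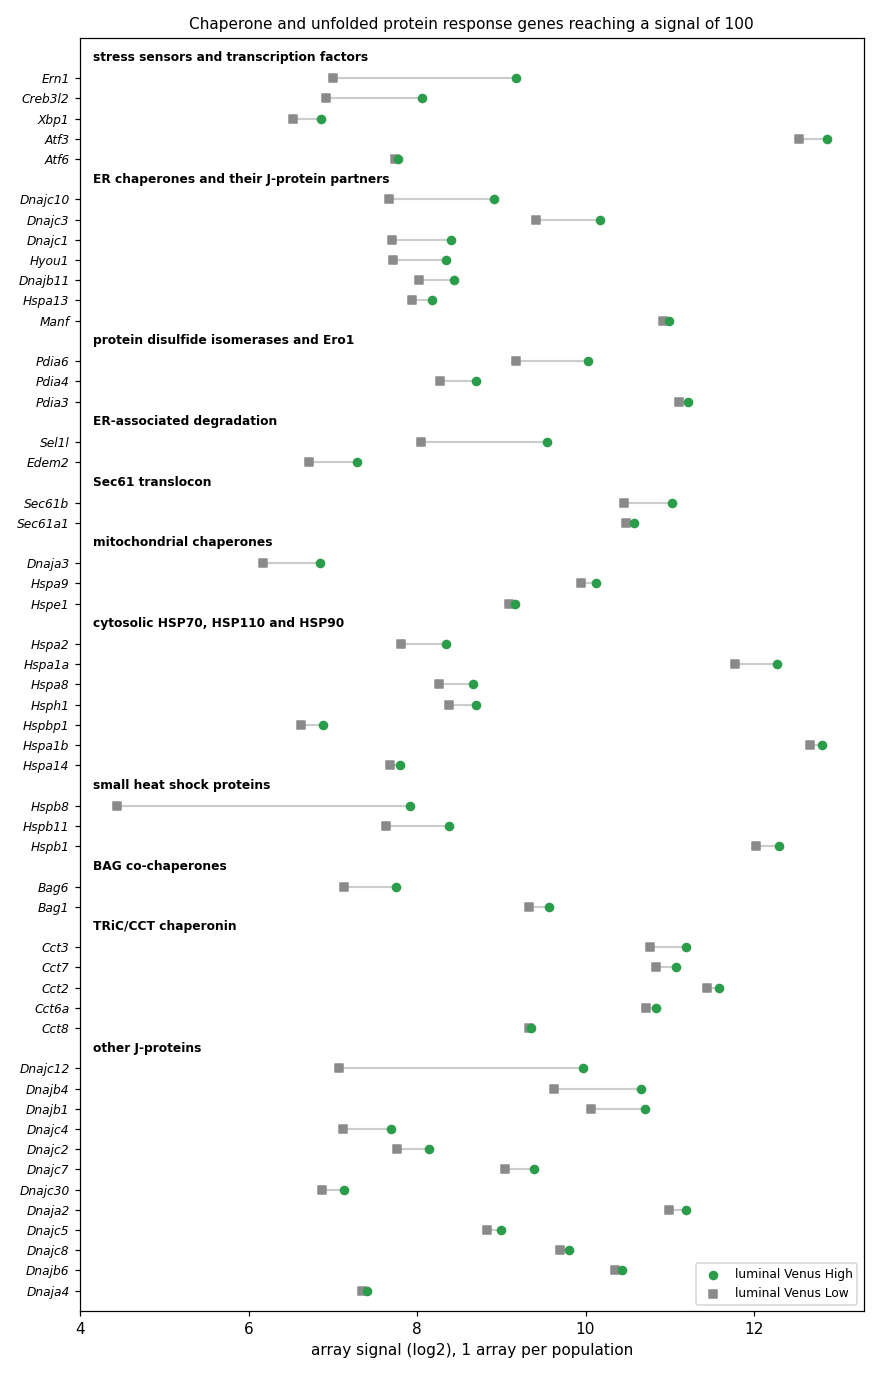
Log2 array signal (horizontal axis) for Venus High (green circles) and Venus Low (grey squares) luminal cells for the 51 genes that reached a signal of 100, grouped by role. Signals of different genes come from different probes, so only the gap within a row can be read, and it is widest for Hspb8, with 7.92 and 4.43.

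Among the stress sensors and the transcription factors they act through, Ern1 had the largest difference. Ern1 encodes IRE1 alpha, the kinase and endoribonuclease that splices Xbp1 mRNA. It had a log2 signal of 9.17 in Venus High cells against 7.001 in the Venus Low cells, a 4.51-fold difference. This rests on 1 of its 5 probe sets. The only other probe set that reached a signal of 100 had 6.999 in Venus High cells against 6.70 in the Venus Low cells, a difference of 0.30, and the remaining 3 gave 0.60, 0.61 and the floor in both populations. Its range of 1.87 was the widest among the 20 genes with 2 or more probe sets that reached this signal, and with the median over its probe sets Ern1 differs by 0.60 and is not counted. Xbp1, the factor made from the spliced mRNA, had 6.86 in Venus High cells against 6.53 in the Venus Low cells on its only probe set in the table. Spliced and unspliced Xbp1 were not measured apart.

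Of the other sensors, Atf6 alone reached a signal of 100. Atf6, a transmembrane factor released by proteolysis in the Golgi, had 7.78 in Venus High cells against 7.73 in the Venus Low cells, and 7.08 against 6.66 on a second probe set, a difference of 0.42. Eif2ak3 is listed at the floor on 2 probe sets and Atf4, the factor translated when PERK is active, on 1. Ern2, the IRE1 paralogue of mucus-secreting epithelia, was also at the floor. Other probe sets of these genes are not analysed here, so their levels cannot be read from the floor. Creb3l2, a transmembrane factor of the reticulum that is cleaved like ATF6, was 2.20-fold higher, with 8.05 in Venus High cells against 6.91 in the Venus Low cells, and its second probe set, below a signal of 100, differed by 0.67. Creb3l4 and Creb3, of the same family, stayed below a signal of 100, with 5.64 and 3.94 in Venus High cells and 5.13 and the floor in Venus Low cells.

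Atf3, a stress-induced factor downstream of ATF4, had 12.86 in Venus High cells against 12.54 in the Venus Low cells, a difference of 0.32. Trib3, a pseudokinase induced by ATF4 and CHOP, had 6.01 and 5.90 in these populations. Atf5, Ddit3, Creb3l1 and Creb3l3 are not analysed here. Atf3, Hspa1a, Hspa1b and Dnajb1 are also known to respond to tissue dissociation, as immediate early genes do. Of 12 such response genes 8 had values, all reached a signal of 100, and log2 signals in Venus High and Venus Low cells were 13.02 and 12.83 for Jun and 11.76 and 11.74 for Fosb. At least 2-fold higher among the 8 were Socs3, with a difference of 2.78, and Nr4a1, with 1.07, beside 21.6% of all genes. The median of the 8 was 0.17, beside 0.46 for all genes. The part of cell preparation in the chaperone signals was not tested.

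All 7 genes of endoplasmic reticulum chaperones and their J-protein partners that had values reached a signal of 100, and 3 of the 4 J-proteins had the largest differences. Dnajc10 encodes ERdj5, a J-protein and disulfide reductase that unlocks misfolded proteins for degradation. It had 8.91 in Venus High cells against 7.67 in the Venus Low cells, a 2.36-fold difference, with 1.23 and 1.76 on the 2 further probe sets. Dnajc3 encodes P58IPK, a J-protein of the reticulum lumen that also restrains PERK. It had 10.17 in Venus High cells against 9.41 in the Venus Low cells, and all 5 of its probe sets reached a signal of 100 and differed by 0.76 to 1.48. Dnajc1, a membrane-anchored J-protein that binds BiP, had 8.40 and 7.70 in the same populations, and a second probe set that reached a signal of 100 differed by 0.41. The table holds no other direction, so only the sizes of these differences can be compared between probe sets.

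The other 4 genes of this group differed less. Hyou1, a large HSP70 relative that exchanges nucleotide on BiP, had 8.34 in Venus High cells against 7.72 in the Venus Low cells. Dnajb11, the J-protein ERdj3, had 8.43 and 8.03, and Hspa13, a microsomal HSP70 relative, had 8.17 and 7.94. Manf, a secreted stress-induced factor that binds BiP, had 10.99 in Venus High cells against 10.92 in the Venus Low cells. Its difference of 0.07 is below the SD between probe sets. The median difference of the 7 genes was 0.62, beside 0.46 for all genes, and 1 of the 7 was at least 2-fold higher, beside 21.6% of all genes. Hspa5, Hsp90b1 and Dnajb9 are the 3 genes of the group without a value, and the median leaves them out.

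Protein disulfide isomerases form and rearrange disulfide bonds in the reticulum. Pdia6, which also attenuates IRE1 signaling, had 10.03 in Venus High cells against 9.18 in the Venus Low cells, a 1.80-fold difference. Pdia4 had 8.70 and 8.27, and Pdia3, the glycoprotein-specific isomerase ERp57, had 11.21 in Venus High cells against 11.11 in the Venus Low cells. All 3 stayed below 2-fold, which 21.6% of all genes reached. Pdia5 stayed below a signal of 100, Pdia2 was at the floor on both arrays, and Ero1l, which encodes the oxidase that recharges these enzymes, is not analysed here.

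Sel1l encodes the adaptor that links misfolded substrates to the ubiquitin ligase HRD1. It had 9.54 in Venus High cells against 8.05 in the Venus Low cells, a 2.83-fold difference. Of its other probe sets, 2 reached a signal of 100, with differences of 1.12 and 1.54. Another, with 6.41 in Venus High cells against 4.91 in the Venus Low cells, and the last, which differed by 0.15, stayed below it. Edem2, a mannosidase that marks glycoproteins for degradation, had 7.28 in Venus High cells against 6.72 in the Venus Low cells. Edem1, Edem3 and Herpud1 are not analysed here. Of the Sec61 translocon, the channel through which proteins enter the reticulum, Sec61b had 11.03 in Venus High cells against 10.46 in the Venus Low cells and Sec61a1, the pore subunit, had 10.58 and 10.48.

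**Figure D3:**
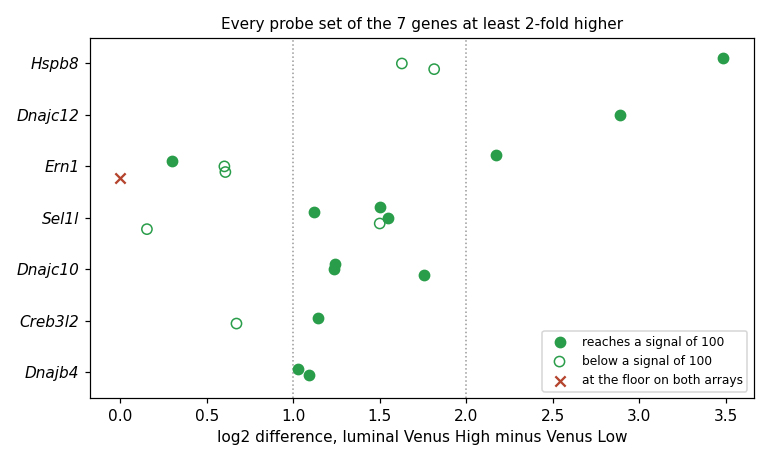
Log2 difference between luminal Venus High and Venus Low cells (horizontal axis) on every probe set of the 7 genes at least 2-fold higher, with filled circles for probe sets that reached a signal of 100, open circles for those below it and crosses for those at the floor on both arrays. Points are shifted vertically to keep them apart, and dotted lines mark 2-fold and 4-fold. The probe sets of Dnajc10, Dnajb4 and Hspb8 and the single one of Dnajc12 all lie beyond 2-fold. For Ern1 only 1 of 5 does.

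The genes of cytosolic HSP70, HSP110 and HSP90 proteins that reached a signal of 100 all differed by less than 2-fold. Hspa1a and Hspa1b, the heat-inducible HSP70 genes, had 12.27 and 12.81 in Venus High cells and 11.77 and 12.66 in Venus Low cells. Their sequences are near-identical, so their probe sets may each report both genes. Hspa8, the constitutive HSP70, had 8.66 in Venus High cells against 8.26 in the Venus Low cells on the single probe set in the table. Hspa2, another HSP70, had 8.34 and 7.80, and Hsph1, an HSP110 that acts as a nucleotide exchange factor, had 8.69 and 8.38. The median difference of the 7 genes of this group that reached a signal of 100 was 0.31, beside 0.46 for all genes. Of these 7, 0 were at least 2-fold higher, beside 21.6% of all genes. Hsp90aa1, although most cells express it, is listed at the floor on the 2 probe sets in the table, so its level is not given by them.

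Among small heat shock protein genes, Hspb8 and Hspb1 differed by unequal amounts. Hspb8 encodes a small heat shock protein that works with BAG3 in the autophagic removal of damaged proteins, and in human breast cancer cells it is induced by estrogen. It had 7.92 in Venus High cells against 4.43 in the Venus Low cells, an 11.2-fold difference. Its 2 other probe sets, with differences of 1.63 and 1.81, stayed below a signal of 100, and the median over its probe sets is 1.77. Because the Venus Low signal lies near the floor the fold depends on it, and with the floor at 100 the difference is 1.27, which is not 4-fold. Hspb1, which encodes HSP27, had 12.30 in Venus High cells against 12.02 in the Venus Low cells, a difference of 0.28, and its second probe set differed by 0.30. Hspb11, which despite its symbol encodes a subunit of intraflagellar transport, had 8.38 and 7.63. Of the 9 genes of this group, 3 stayed below a signal of 100 and 3, Hspb3, Hspb7 and Hspb9, lay at the floor in both populations.

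BAG proteins release substrates from HSP70. Bag6, which also escorts tail-anchored proteins, had 7.75 in Venus High cells against 7.13 in the Venus Low cells, and Bag1, a nucleotide exchange factor, had 9.57 and 9.32. Bag3, the partner of Hspb8, is not analysed here. The TRiC/CCT subunits, which fold actin and tubulin, had the smallest median of the role groups, 0.14 over 5 genes, beside 0.46 for all genes. Their values ran from 0.02 for Cct8 to 0.43 for Cct3. Cct3 had 11.19 in Venus High cells against 10.77 in the Venus Low cells, and the 4 of its probe sets with such a signal differed by 0.41 to 0.50. Cct2 had 11.58 in Venus High cells against 11.44 in the Venus Low cells and Cct7 11.07 and 10.84. Cct4 is listed at the floor on 1 probe set and Cct5 is not analysed here.

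The 3 mitochondrial chaperone genes with values also differed by less than 2-fold, which 21.6% of all genes reached. Their median was 0.17, beside 0.46 for all genes. Hspa9, the mitochondrial HSP70 mortalin, had 10.12 in Venus High cells against 9.95 in the Venus Low cells, and Hspe1, which caps the mitochondrial chaperonin, had 9.17 and 9.10. Dnaja3, the J-protein partner of Hspa9, had 6.85 in Venus High cells against 6.17 in the Venus Low cells, or a difference of 0.21 with the floor at 100.

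The remaining J-proteins formed the largest group, 30 genes, of which 12 reached a signal of 100, 11 stayed below it and 7 lay at the floor in both populations. Dnajc12 had the largest difference among them. In humans DNAJC12 is a co-chaperone of the aromatic amino acid hydroxylases. It had 9.97 in Venus High cells against 7.08 in the Venus Low cells, a 7.41-fold difference on its only probe set, and the value does not depend on the floor. Dnajb4, a cytosolic partner of HSP70, had 10.65 in Venus High cells against 9.63 in the Venus Low cells, a 2.04-fold difference, and its second probe set differed by 1.09. Dnajb1, the main heat-inducible J-protein, had 10.71 in Venus High cells against 10.06 in the Venus Low cells on a first probe set and 10.50 and 10.17 on another. Dnaja2 had 11.19 in Venus High cells against 10.99 in the Venus Low cells and Dnajb6, which suppresses polyglutamine aggregation, had 10.43 and 10.34. The 2 other probe sets of Dnajb6 that reached a signal of 100 differed by 0.24 and 0.57, and the median over its probe sets is 0.40. The median of the 12 genes was 0.30, beside 0.46 for all genes.

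Lists of partner genes were set beside these groups, with 119 genes in all, of which 84 had values and 70 reached a signal of 100. At least 2-fold higher were 8 of the 70 (11.4%, beside 21.6% of all genes), and 1 was at least 4-fold higher (1.43%, beside 8.58%). The median of the 70 was 0.45. The lists were chosen with earlier results of these data known, and their medians too come from values that are never lower in Venus High cells.

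Partners in degradation and folding differed by 2-fold or less with 1 exception. All 13 genes of degradation partners that had values reached a signal of 100, with a median of 0.52. Derl2, a derlin of the membrane channel, had 8.92 in Venus High cells against 7.95 in the Venus Low cells, and Vcp, the ATPase that extracts substrates, had 11.39 and 10.70. Sdf2l1, which assists the J-protein ERdj3 and BiP, was the exception, 2.72-fold higher with 8.36 in Venus High cells against 6.92 in the Venus Low cells. The lectin chaperone genes Calr and Canx had 11.94 and 11.03 in Venus High cells and 11.91 and 10.99 in Venus Low cells, and P4hb, the classical disulfide isomerase, had 11.63 in Venus High cells against 11.48 in the Venus Low cells. Of the 19 genes of translocation and signal peptide processing, Srp14, a subunit of the signal recognition particle, was 2.28-fold higher, with 4 probe sets that differed by 0.97 to 1.28. Dad1, a subunit of the oligosaccharyltransferase, had 11.29 in Venus High cells against 10.29 in the Venus Low cells, just past 2-fold, and its second probe set differed by 1.25.

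Of the 6 sensor-processing and stress-regulator genes above a signal of 100, 3 differed by 2-fold or more, beside 21.6% of all genes. Wfs1, which encodes wolframin, a membrane protein of the reticulum, had 7.32 in Venus High cells against 5.74 in the Venus Low cells, and Atf6b, a paralogue of Atf6, had 6.79 and 5.70. These 2 differences shrink to 0.67 and 0.15 when the floor is raised to 100. Sdf4, a calcium-binding protein of the Golgi, had 9.76 in Venus High cells against 8.45 in the Venus Low cells, and a second probe set that reached a signal of 100 differed by 1.03. The site proteases that release ATF6 are encoded by Mbtps1 and Mbtps2, which had 9.26 and 8.14 in Venus High cells and 9.04 and 7.95 in Venus Low cells.

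In the integrated stress response, which PERK and other kinases start through eIF2 alpha, Phgdh had the widest gap. Phgdh encodes the first enzyme of serine synthesis and is a target of ATF4. It had 9.10 in Venus High cells against 5.85 in the Venus Low cells on the probe set used, a 9.48-fold difference, or a log2 difference of 2.45 once the floor is set to 100. The 3 other probe sets differed by 1.38 to 3.34, and all 4 belong to a class of probe sets that may also detect related sequences. Asns, the asparagine synthetase gene and another target of ATF4, had 7.76 in Venus High cells against 7.72 in the Venus Low cells. Nupr1, a stress-induced nuclear protein, had 12.09 and 11.21. Of the co-chaperones of HSP90, Stub1, a ubiquitin ligase that acts on chaperone clients, was 2.01-fold higher on 1 probe set, and another differed by 0.53. Stip1, which passes clients from HSP70 to HSP90, had 8.38 in Venus High cells against 7.62 in the Venus Low cells, and Tcp1, the first subunit of TRiC, had 10.79 and 10.67.

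**Figure D4:**
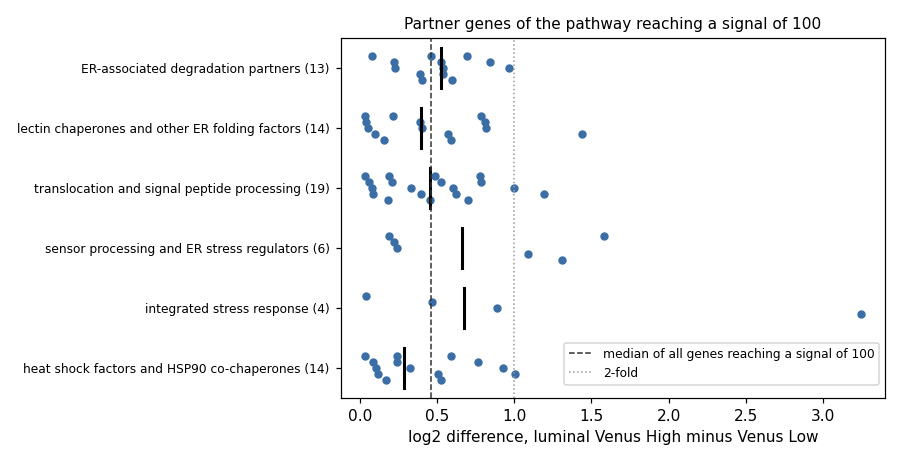
Log2 difference between luminal Venus High and Venus Low cells (horizontal axis) of each partner gene that reached a signal of 100 (blue points), by list, with the number of genes in parentheses. Black bars mark the median of each list, the dashed line the median of all genes, 0.46, and the dotted line 2-fold. Phgdh, at 3.24, is the only point beyond 4-fold.

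Response elements were searched on both strands of RefSeq promoter windows (build GRCm38.p6), which run from 250 bases before the start site to 50 after it. Of the 95 genes, 75 had a window. The ER stress response element, CCAAT and CCACG with any 9 bases between them, was found in 2 of the 75 genes (2.67%) and in 14 of all 10984 genes with a window (0.127%). Its 2 holders, Dnajc3 and Pdia6, are shown because they differed by 0.76 and 0.85, each below 2-fold. Capitals mark the element.
Dnajc3: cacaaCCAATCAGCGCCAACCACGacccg
Pdia6: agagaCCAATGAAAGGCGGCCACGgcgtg

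The Dnajc3 stretch lies on the plus strand at chr14:118937822-118937850 and the Pdia6 stretch on the plus strand at chr12:17266486-17266514, and the elements begin 105 and 98 bases before the start site. The CCACG part alone, which overlaps the full element, was found in 43 of the 75 genes (57.3%) and in 44.3% of all genes, and among the 7 genes past 2-fold it was held by 4, Hspb8, Ern1, Sel1l and Dnajb4. The unfolded protein response element TGACGTGG, which on its other strand also holds this part, was found in 0 of the 75 genes and in 0.956% of all genes. The cyclic AMP response element TGACGTCA was found in 1 of the 75, Dnajc27, and in 2.69% of all genes. Dnajc12 had no window, and in those of the other genes past 2-fold no full ER stress response element, TGACGTGG or TGACGTCA was found.

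Heat shock elements, GAA and TTC triplets in alternation with 2 bases between them, were found in 3 of the 75 genes (4%) and in 0.61% of all genes. The holders were Hspe1, Dnajb6 and Hsph1, with differences of 0.07 to 0.31 on the brightest probe set of each. Those before the start site are shown, with 1 element each in capitals, because they are the only copies found upstream of a start site among the 75 genes.
Hspe1: gtccgTTCTAGAACCTTCcggaa
Dnajb6: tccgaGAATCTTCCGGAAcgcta

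The Hspe1 stretch is on the plus strand at chr1:55088054-55088076, where a second element overlaps the one shown, and the Dnajb6 stretch on the plus strand at chr5:29735847-29735869. The core of the CHOP-ATF4 element, TTNCATCA, was found in 3 of the 75 genes, Atf3, Hspa14 and Trib3, and in 3.43% of all genes. The Atf3 copy is shown because its gene is itself a target of ATF4.
Atf3: cgcacTTGCATCAccaag

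It lies at chr1:191183431-191183448 and is written along the gene, which is on the minus strand. Matches describe these letters only, and binding was not measured.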

How the data were processed

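RNA of sorted Venus High and Venus Low luminal cells (250 ng per labelling, RNA integrity number above 9.4 per the labels) was hybridized to 1 Affymetrix mouse array each. The authors deposited log2 values, made by log2 transformation followed by per-sample normalization and centring in BRB Array software. The submitters' processing notes also name MAS5. No further scaling between the arrays is described.

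By the platform annotation, 22223 probe sets had 1 gene symbol, 602 had several and 6513 were not listed. Only probe sets with 1 symbol were used, and 3 with several, which include a chosen gene, were left out. A gene took the values of its probe set with the highest mean, and was counted as higher where it reached a signal of 100 on either array and differed by at least 1 or 2 on the log2 scale. With 1 array per population nothing was tested. Named were genes at least 2-fold higher, the 3 largest differences and 2 highest means of each role group, and the sensors and factors. Other genes were named after their values were seen. Members, lists and alternatives were chosen with earlier results of these data known. Depth does not apply to arrays, and columns of other samples numbered 0. The alternatives were median centring, quantile normalization, floors of 32 and 100, the median of probe sets, leaving out probe sets whose suffix marks possible cross-detection, and signal minima of 50, 200 and none. Computation used Python 3.11.15, numpy 2.4.6, pandas 2.3.3 and matplotlib 3.10.9 and was tested on simulated data.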

Additional observations from a re-analysis of the deposited data

How the results depend on the processing

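Median centring moved all 40 named genes by more than the SD between probe sets, because it takes the same 0.66 from each. Quantile normalization moved 37, while each floor or probe set alternative moved 1 to 4. Leaving out probe sets by suffix covered fewer named genes, with 3 moved and 31 the same. Of those moved, Cct3 and Dnaja3 fell to 0 on a probe set at the floor. The 7 of 51 genes at least 2-fold higher became 3 after median centring and 3 after quantile normalization, namely Hspb8, Dnajc12 and Ern1. Of all genes, 10.9% and 10.6% were past 2-fold under these settings. With the median over probe sets 40 genes reached a signal of 100. Of these 40, 4 were at least 2-fold higher, namely Sel1l, Dnajc10, Dnajb4 and Dnajc12, beside 21.8% of all genes. Hspb8, with a median difference of 1.77, did not reach that signal. The 3 genes at least 4-fold higher became 1, Dnajc12, with the median of probe sets, beside 8.88% of all genes. The median difference of the chaperone and unfolded protein response genes was -0.32 after median centring and -0.27 after quantile normalization, and that of all genes -0.20 and -0.22 under these settings. With no signal minimum, when genes at the floor on both arrays enter, the median of all genes was 0.024 and that of the chaperone and unfolded protein response genes 0.23, so that their order turned, and 10 of 95 were at least 2-fold higher, beside 9.93% of all genes. Median centring and quantile normalization take their reference from a table without lower values. Of 40 named genes 28 became negative under the first and 29 under the second. Both counts include Atf4, Eif2ak3 and Ern2, which lie at the floor on both arrays and so have no measured direction. All 7 genes at least 2-fold higher kept a positive difference under quantile normalization. The floor and probe set alternatives could not have turned any negative, because no probe set in the table is lower in Venus High cells. Median centring could not either, because it takes 0.66 from differences of at least 1. Floors of 32 and 100, signal minima of 50 and 200 and leaving out probe sets by suffix left both counts within 1.5 times the value reported. The share of all genes did move with the floor at 100. There 7 of the 51 genes were at least 2-fold higher, beside 15.1% of all genes, and 2 at least 4-fold, beside 4.39%. Under the others of these settings 21.6% to 23.1% of all genes were at least 2-fold higher. Values near the floor limit the precision of single folds, as for Hspb8 in Venus Low cells, and 1 array per population gives no spread between animals and nothing to leave out. No paired analysis was possible because each population has 1 array.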
